A study of Mus musculus with 4 samples.

Results

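The genes described are the 209 protein-coding genes on the mouse autosomes that span more than 500 kb from start to end in the RefSeq table of assembly GRCm38.p6 (mm10), leaving out those whose symbols begin with Kcn, Col, Zfp or Fox. Of 20665 autosomal protein-coding genes, 216 were longer than 500 kb and 7 of them carried an excluded symbol. Each gene body was trimmed by 2000 bp at both ends, and all 209 held at least 100 CpGs with a value in every sample, from 877 in Edil3 to 11402, with a median of 3290. The genes were chosen by length and not by methylation. DNA was taken from germ cells of testes of 21-day-old mice and sequenced after bisulfite conversion by PBAT, in which adaptors are joined to DNA that has already been converted. The 2 control samples carried floxed alleles of Np95 (Np95fl/fl), and the 2 knockout samples carried the same alleles with Stra8-Cre (Np95fl/fl:Stra8-Cre), a recombinase gene driven by a promoter active in germ cells before meiosis. The floxed alleles were thus shared by both groups, whereas Cre was present in the knockouts only, and no group carried Cre without the floxed alleles. Whether the samples within a group are from different animals is not stated, so p-values cover only how these samples vary, and that variation may be technical.

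Np95, also named Uhrf1, binds hemimethylated CpGs behind the replication fork and recruits Dnmt1, which copies methylation onto the new strand. In male germ cells most CpGs inside genes are methylated, and CpG-rich gene starts are largely free of methylation. The longest mouse genes encode mainly proteins of the nervous system, such as adhesion molecules, receptors and channels, and several lie at common fragile sites, which tend to break when replication is slowed.

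On the autosomes between 28863300 and 29616095 of 36805041 listed cytosines had a value per sample, and 22379309 had one in all 4. The reads behind each value are unknown, so every cytosine had the same weight. Methylation levels give no check of whether the floxed exons were deleted. As a check of the cell type, starts of 14 germline genes that somatic cells methylate (Dazl, Sycp3, Ddx4 and others) averaged 6.21% and 4.22% in the controls against 15.3% and 12.7% in the knockouts. No single start exceeded 10.7% in a control or 27.0% in a knockout. At 12 of the 14 both knockouts were above both controls. The part of other cells in the values given here was not tested.

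Long genes lost methylation along nearly all of their length, and most of them lost a similar share. The mean level over the 209 gene bodies was 78.2% and 82.7% in the controls against 42.2% and 42.4% in the knockouts. The knockouts were nearly the same as each other, the controls lay further apart, and the groups did not overlap. The group means were 80.5% ± 3.16 (SD, n = 2) and 42.3% ± 0.157 (SD, n = 2), a difference of -38.1 percentage points. An exact permutation test, two-sided, gave p = 0.33, and with 2 samples per group no smaller value is possible. The kept share, which is the knockout mean as a percentage of the control mean, was 52.6%.

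In all 209 genes both knockouts were below both controls, which was also true of 99.7% of the 10747 gene bodies measured. Calls were made with limma and required an adjusted p (Benjamini-Hochberg) under 0.05 together with a change of 10 points or more. By this rule 206 of the 209 (98.6%) were lower in knockouts and 0 were higher, beside 97.9% lower and 0.0% higher over all gene bodies, so the share of long genes called was near that background. All 209 had an adjusted p under 0.05 in limma, from 1.03e-31 to 8.75e-09 with a variance pooled over genes and from 0.0158 to 0.0164 with each gene's own spread. The 3 genes not called were Gm37013, Gm38666 and Gm38667, whose losses were 7.83, 8.20 and 8.40 points. Control replicate 2 was above control replicate 1 in 208 genes, and knockout replicate 2 was above knockout replicate 1 in 138. Each sample was also centred on its median over all gene bodies, which removes the common shift of -2.79 log2 units on the logit scale. Centred calls required only an adjusted p under 0.05 in limma, without the limit of 10 points. By this rule 21 of the 209 (10.05%) were lower and 118 (56.5%) higher, beside 30.1% and 44.0% over all gene bodies. On that scale an equal kept share gives a smaller change where the control level is lower.

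**Figure D1:**
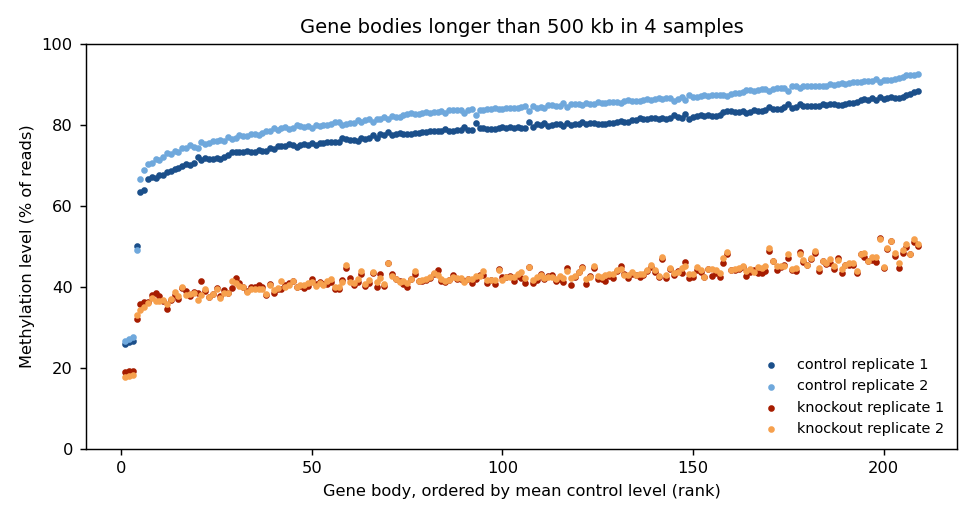
Methylation level of each of the 209 long gene bodies (vertical axis, percent) in the 4 samples, with genes ordered by their mean control level (horizontal axis, rank). Points of both knockouts lie under those of both controls in every gene, and the genes at the far left, from 25.8% to 50.1% in control replicate 1, are Gm37013, Gm38666, Gm38667 and Skint5.

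The 5 longest genes all kept between 51.1% and 52.9% of their control level. Ptprd, a receptor tyrosine phosphatase that organizes synapses and the longest at 2271 kb (chr4:75941237-78211742), had 77.9% and 81.9% in the controls against 41.5% and 41.2% in the knockouts. Cntnap2, a neurexin relative of the axon, had 78.1% and 82.7% against 41.5% and 41.4%. Lsamp, a surface protein of limbic neurons, had 79.0% and 83.0% against 41.2% and 41.5%. The groups did not overlap in any of these genes. Lrp1b, a receptor of the LDL receptor family, had 73.3% and 77.4% against 39.9% and 39.9%, and Macrod2, a mono-ADP-ribosylhydrolase, had 81.6% and 86.5% against 43.8% and 44.1%. The lower level of Lrp1b was thus found in every sample, and its kept share of 52.9% was close to the 52.3% of Macrod2.

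Compared with other genes, long genes ended lower in the knockouts, starting from a mean control level that was slightly higher and a median control level that was lower. The median gene went from 81.9% to 42.5% among long genes and from 86.1% to 45.7% among the others. The 10538 other gene bodies, which include the 7 with an excluded symbol, had a mean of 79.3% ± 2.82 (SD, n = 2) in the control group and 44.0% ± 0.384 (SD, n = 2) in the knockout group, a kept share of 55.5%. The log2 ratio of long to other genes was 0.02 and 0.03 in the controls against -0.05 and -0.06 in the knockouts, a difference of -0.08 (exact two-sided permutation p = 0.33, the smallest possible). Both controls were above 0 and both knockouts below it. The difference became -0.05 against other genes of 100 to 500 kb, which kept 54.3%, and -0.04 against other genes within the middle 90% of the control levels of the long genes, which kept 53.9%. It was -0.03 with genes of at least 2000 valued CpGs on both sides, and each of these had the same p. Gene by gene, the kept share had a median of 52.2% in long genes and 55.7% in the others, and 15 of the 209 exceeded the median of the others.

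The kept share declined in steps of length rather than at 500 kb. Its median was 56.6% in 2002 genes of up to 20 kb, 55.8% in genes of 50 to 100 kb, 54.5% in genes of 100 to 200 kb and 52.9% in 728 genes of 200 to 500 kb. Among the long genes it was 52.5% from 500 to 750 kb (105 genes), 52.2% from 750 to 1000 kb (50 genes) and 51.7% above 1000 kb (54 genes). CpG density and isolation moved along with length. From the shortest to the longest class the median number of listed CpGs per kb went from 14.9 to 5.19, and the median share of isolated CpGs, those with no other listed CpG within 35 bp, went from 28.4% to 58.7%. On isolated CpGs alone, long genes kept 50.9% and other genes 53.8%, a log2 difference of -0.08, the same as over all CpGs. Just under the threshold, Cacna1e, Lrrc7 and Dnm3 kept 51.5%, 53.1% and 51.2%. Just above it, Edil3, Dock1 and Samd12 kept 51.6%, 55.6% and 52.3%.

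**Figure D2:**
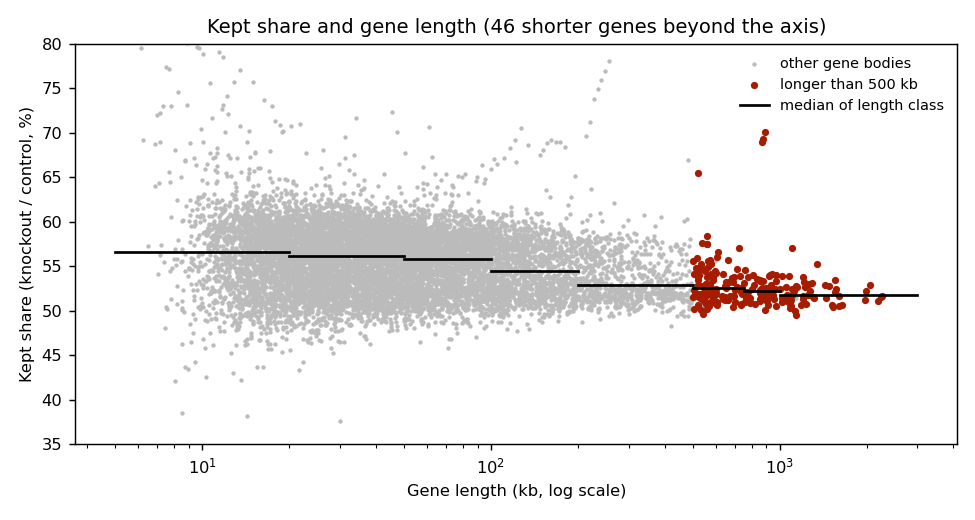
Kept share (vertical axis, knockout mean as a percentage of control mean) against gene length (horizontal axis, kb, log scale) for 10747 gene bodies, with long genes as the larger points and class medians as bars. The medians step down from 56.6% at the left to 51.7% above 1000 kb, and 46 shorter genes lie beyond the vertical axis, which runs from 35 to 80.

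Within long genes the neighbourhood of a CpG went with its level and its kept share. Isolated CpGs, 48.7% of the valued cytosines, went from a mean of 84.8% ± 3.78 (SD, n = 2) to 43.1% ± 0.384 (SD, n = 2), a kept share of 50.8%. Cytosines of CpGs with 3 or more neighbours, 8.76% of the total, averaged 59.4% ± 1.37 and 35.4% ± 0.188, a kept share of 59.6%. Isolated CpGs of other genes kept 53.1% and those with 3 or more neighbours 58.7%. Isolated CpGs thus kept less in long genes, and dense CpGs kept slightly more, differences that were not tested. The share of long-gene cytosines methylated at 80% or more was 68.6% and 80.2% in the controls against 2.06% and 2.11% in the knockouts. Intermediate levels, between 20% and 80%, were found at 24.8% and 13.3% of cytosines in the controls and at 85.2% and 85.3% in the knockouts. Cytosines at 20% or less went from 6.58% to 12.6%.

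Long gene bodies were more methylated than the DNA around them in all 4 samples. The 200 kb on both sides averaged 70.7% and 74.6% in the controls against 38.9% and 38.9% in the knockouts, and kept 53.6%. Bodies were trimmed by 2000 bp at each end, whereas flanks began directly at the edge of the gene. The low level just before the start, 19.6% on average in controls within 1 kb, thus counted in the flanks only. The log2 ratio of body to flank was 0.15 and 0.15 in the controls against 0.12 and 0.13 in the knockouts, a difference of -0.03 (exact two-sided permutation p = 0.33, the smallest possible) that was -0.01 on isolated CpGs alone. The body was above its flanks in 176 genes by the control level and in 163 by the knockout level. In 153 of the 209 genes the body kept less than its flanks. Across the 209 genes the kept share of the body and that of the flanks had a Spearman's rho of 0.35 and a Pearson's r of 0.49. Without Gm37013, Gm38666, Gm38667 and Skint5 they were 0.31 and 0.28 over 205 genes. These coefficients are across genes, which are not independent replicates, and body and flanks share the same 4 libraries.

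Kept shares of single genes ran from 49.5% to 70.1%, with 186 of 209 between 50% and 55%, 3 below and 20 above. The order of genes was similar in both pairs of libraries: shares computed from replicate 1 alone and replicate 2 alone had a Spearman's rho of 0.86 and a Pearson's r of 0.93 over 209 genes. Without Gm37013, Gm38666, Gm38667 and Skint5, the SD over the other 205 genes was 1.65 points and the highest share was 58.5%. Among the 209 genes the share had a Spearman's rho of -0.18 with length, -0.02 with listed CpGs per kb and -0.10 with control level, all from the same libraries.

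Gm37013, Gm38666 and Gm38667 are overlapping gene models on chromosome 18 that share at least 97.6% of their span, so they are 1 locus counted under 3 names. Schip1, another long gene, lies wholly within Iqschfp. Gm37013 (chr18:36952648-37841873) holds 58 other protein-coding genes, 54 of them named Pcdh, the clustered protocadherins that give neurons distinct surface identities. Its level was 25.8% and 26.7% in the controls against 19.0% and 17.8% in the knockouts. Both groups were low, they did not overlap, and the kept share of 70.1% was the highest of the long genes. In the first of its 20 parts the values were 17.0% and 15.5% against 18.7% and 16.3%, and in the second 11.4% and 12.1% against 13.9% and 12.1%, so both parts had overlapping groups. A 10-kb window in its first part (chr18:36960001-36970000) had 6.17% and 5.29% in the controls against 12.8% and 12.1% in the knockouts. This window was higher by limma (adjusted p = 7.45e-31), with a gain of 6.68 points that is under the 10 points needed for a call.

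Skint5, a member of an epidermal immunoglobulin-like family, was the other gene with a low control level. It had 50.1% and 49.1% in the controls against 32.0% and 32.9% in the knockouts, and kept 65.5%. Its flanks had a similar kept share of 64.9%, and its 20 parts ranged from 55.6% to 77.2%. Skint5 was the single gene in which control replicate 2 was not above control replicate 1. It held 4.06 listed CpGs per kb, fewer than the median long gene at 6.31.

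A further 16 genes kept more than 55%. Their control median was 86.7% and their knockout median 48.5%, beside 81.8% and 42.4% in the 189 genes at 55% or less. Ank2 (72.1%), Naaladl2 (75.05%), Lrba (78.4%), Iqcm (78.8%) and Nbea (79.8%) had control means under that 81.8%, and Ank2 (39.8%) and Naaladl2 (41.5%) had knockout means under that 42.4%. In 14 of the 16 the body kept more than its flanks, against 38 of the 189. Both groups of genes were set on the kept share, so these counts are descriptions. Vps13b, a lipid transfer protein of the Golgi, had 86.9% and 90.7% in the controls against 52.1% and 51.7% in the knockouts, and kept 58.5%. Its flanks kept 53.2%. Lrba and Nbea, related BEACH-domain proteins of vesicle traffic, kept 57.5% each, where their flanks kept 54.7% and 52.0%. Exoc4, a subunit of the exocyst, and Auts2, a nuclear regulator of neurodevelopment, kept 57.0% each. In Auts2, which spans 1106 kb, every one of the 20 parts kept at least 54.4%. Genes above 55% also included Cacna1c, Magi1, Gmds, Rabgap1l, Cdkal1, Dock1, Smyd3, Naaladl2, Iqcm and Ank2.

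The 12 genes with the lowest shares had control means from 70.7% in Nfia and 76.0% in Mecom to 88.8% in Plcb1. Ptprt, a receptor tyrosine phosphatase of neurons, had 85.6% and 90.7% in the controls against 43.4% and 43.9% in the knockouts. It kept 49.5%, and its loss of 44.5 points was the largest among the 209. Nfia, a transcription factor of the nuclear factor I family, had 68.3% and 73.0% against 34.4% and 35.8%, and kept 49.7% where its flanks kept 53.7%. The Nfia knockouts were therefore low in both samples, and its control level was low as well. Opcml, an adhesion molecule of the same family as Lsamp, Nell1, a secreted factor of bone and cartilage, and Sorcs1, a sorting receptor, kept 49.9%, 50.1% and 50.1%. Losses of 44.0 points in Plcb1, a phospholipase C, and 43.8 points in Sorcs3 came next to that of Ptprt.

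Grouped by function, the long genes had median kept shares that differed little from one group to another. The counts called lower in each group are read against the 97.9% of all gene bodies called lower. Of 36 long genes of neural and synaptic cell adhesion, 36 were called lower, with a median kept share of 51.7% and a range from Ptprt (49.5%) to Sdk1 (54.1%). The 11 shorter genes of this list kept a median of 51.9%. All 11 genes of axon guidance and neuregulin signalling were lower (median 52.6%), from Nrg1 at 50.7% to Erbb4 at 53.9%. Robo2, a receptor for Slit, had 75% and 80.03% in the controls against 40.6% and 40.1% in the knockouts. Dab1, an adaptor of Reelin signalling, had 81.7% and 87.0% against 43.5% and 44.5%. All 7 neurotransmitter receptor genes were lower (median 51.7%), from Grid1 at 51.2% to Grik2 at 53.7%. The 10 genes of ion channels and their partners were lower as well (median 51.8%). Dpp6 and Dpp10, partners of potassium channels, kept 50.6% each, and Cacna1c, a calcium channel subunit, kept 56.6%.

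Among 22 genes at common fragile sites, 22 were called lower, where 97.9% of all gene bodies were, with a median kept share of 52.4%, and Csmd1 kept 50.6%. Fhit and Wwox, the best known of these, kept 51.7% and 52.4%. Naaladl2, Auts2, Exoc4 and Nbea of this list were among the 16 genes above 55%. All 12 genes of transcription and RNA binding were lower (median 52.0%). Of these, Rbfox1, a splicing factor of 1528 kb, had 83.0% and 88.6% in the controls against 42.7% and 43.9% in the knockouts, and kept 50.5%. Sox5 kept 51.3% and Sox6 51.8%. The 14 scaffold genes, all lower, kept a median of 52.4%, from Dlgap2 (51.0%) to Magi1 (56.0%), whereas the 7 shorter scaffold genes kept 55.3%. All 9 genes of signalling enzymes were lower (median 52.0%), with the phosphodiesterase gene Pde4d at 51.5% and the kinase gene Prkg1 at 51.3%. Of the 96 long genes in none of these lists, 93 were called lower (median 52.6%), so these counts too are near the background. These medians stand beside 52.2% over all long genes and 55.7% over the other gene bodies, and the lists share some members. Shorter genes kept medians of 52.1% in the axon guidance list, 51.7% in the receptor list and 52.7% in the channel list. In the transcription list they kept 51.6% and in the enzyme list 52.8%, and the fragile site list had none measured. Except for scaffold genes, shorter genes were nearer to the long genes of their list than to 55.7%.

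Along the gene, the level dipped at both ends and the kept share did not. In 163 genes whose strand is given, the first of 20 equal parts from the 5′ end averaged 74.0% and 78.5% in the controls against 39.7% and 40.05% in the knockouts. The last part averaged 78.4% and 82.8% against 42.5% and 42.6%. In the 18 parts between them, control means lay between 82.0% and 83.9%. The kept share was between 51.9% and 52.8% in all 20 parts. The log2 ratio of the first part to parts 8 to 13 was -0.12 and -0.11 in the controls against -0.12 and -0.11 in the knockouts. The groups overlapped, and the difference was -0.000374 (exact two-sided permutation p = 0.667), with a sign that changed under other settings. Counted by coordinate, so that the 46 genes without a strand were included, all 209 genes gave kept shares of 52.3% to 53.0% over the parts.

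**Figure D3:**
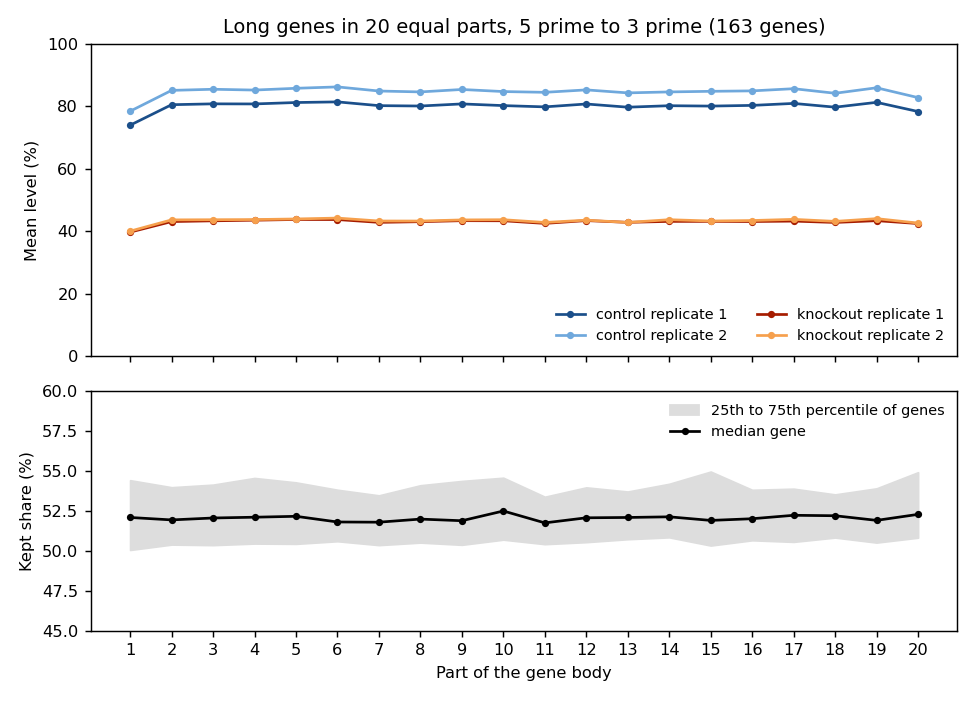
Upper panel, mean level (percent) of 163 long genes in each of 20 equal parts from 5′ to 3′ in the 4 samples. Lower panel, kept share (percent) of the median gene with the 25th to 75th percentile of genes shaded: the level dips in part 1, to 76.2% on average in controls, while the median kept share stays between 51.7% and 52.5%.

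Single genes were less even along their length than the average profile, which is a mean over many genes. Of 4180 parts, 4175 held at least 20 valued CpGs, and in 4170 both knockouts were below both controls. The 5 others belonged to Gm37013, Gm38666 and Gm38667. The SD of the kept share over the parts of a gene had a median of 2.15 points. A part holds about a twentieth of the CpGs of its gene, so this SD cannot be set against the SD between whole genes. The most even gene was Alk, a receptor tyrosine kinase, whose parts kept between 49.3% and 52.4%. Wwox was also even, from 50.4% to 54.0%. The least even was Gm37013, from 47.4% to 110%. The lowest part of any gene was the 10th of Nfia, with 79.4% and 85.8% in the controls against 35.8% and 36.7% in the knockouts, a kept share of 43.9%.

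Some parts lay in local dips of methylation. Apart from Gm37013, Gm38666 and Gm38667, 68 parts in 51 genes had a control level under 50%, 11 of them in Skint5. A start from the RefSeq promoter table lay in 38.2% of these 68 parts, against 5.64% of the parts at 80% or more. The 12th part of Lrba had 16.3% and 17.5% in the controls against 14.9% and 13% in the knockouts, and kept 82.5%. This part holds Mab21l2, a short gene of eye and body wall development that lies within Lrba on chromosome 3. The 6th part of Nbea by coordinate had 26.6% and 26.9% against 17.5% and 19.0%, kept 68.1% and holds Mab21l1, a relative of Mab21l2. In both parts the groups were low and did not overlap. Low parts did not always keep more: the part of Sox6 with its start, 18.7% and 18.8% in the controls against 10.7% and 10.1% in the knockouts, kept 55.7%, and the 10th part of Rims1 by coordinate, 25% and 27.3% against 13.2% and 13.2%, kept 50.5%. A high kept share also occurred without a dip. The first part of Vps13b by coordinate had 86.5% and 89.96% in the controls against 58.6% and 59.1% in the knockouts, and kept 66.7%.

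**Figure D4:**
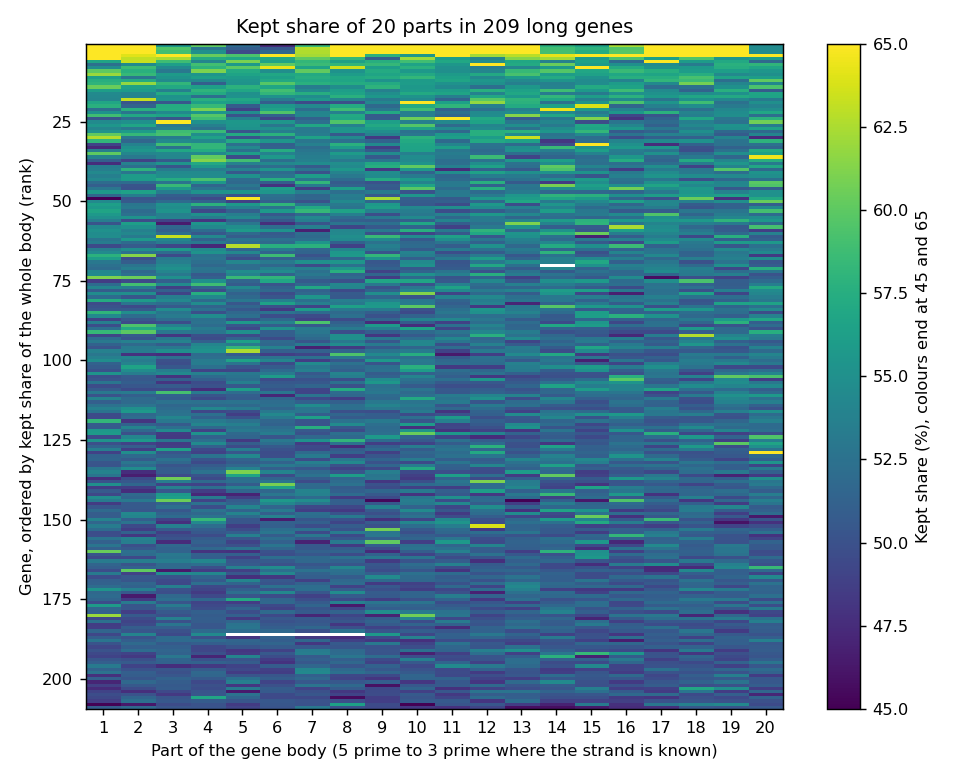
Kept share (colour, percent, with colours ending at 45 and 65) in the 20 parts of each of 209 long genes, ordered from the highest kept share at the top to the lowest, 5′ to 3′ where the strand is known and by coordinate otherwise. Most cells lie near the average. Bright cells fill much of the top rows (Gm37013, Gm38666, Gm38667 and Skint5), and elsewhere those above 65% stand alone in their gene, as in Lrba part 12 (82.5%). White cells are the 5 parts with under 20 valued CpGs.

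Windows of 10 kb inside long genes were also nearly all called lower. Of 17351 windows wholly inside a long gene, 16964 held at least 10 valued CpGs, and limma called 16807 of them (99.1%) lower and 0 higher, beside 97.1% lower and 0.00043% higher over all 232607 windows. With each sample centred on its median and no limit in points, 28.5% of the windows inside long genes were lower and 20.7% higher. Over all windows these shares were 17.5% and 37.1%. Relative to all windows, those inside long genes were thus more often lower and less often higher. Centred gene bodies went the other way, with 10.05% of long genes lower beside 30.1% of all, and 56.5% higher beside 44.0%. The cause of this reversal was not tested. In 127 of the 209 genes every measured window was called lower. At an unadjusted p under 0.05, 10 windows were higher in knockouts, 9 of them in the Gm37013 locus, and with each window's own spread 3 were higher at that level and 0 were called. The 157 windows not called included 35 in the Gm37013 locus, 6 in Skint5 and 5 in Sntg1, and 78 of the 157 were under 20% in controls. Of the 157, 130 had an adjusted p under 0.05 in limma and missed only the limit of 10 points.

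Around the starts, both groups went down to a trough and came back to the level of the gene body within 10 to 20 kb. In the first 1 kb of the gene the level was 8.42% and 8.90% in the controls against 5.48% and 5.22% in the knockouts (152 genes). From 2 to 5 kb it was 63.4% and 68.1% against 33.8% and 34.4%, and from 10 to 20 kb it was 80.1% and 85.0% against 43.1% and 43.6%. The groups did not overlap in any of these classes. The kept share was 61.7% in the first 1 kb, 58.4% from 1 to 2 kb, and between 51.9% and 52.5% in each class from 2 kb onward. In the 1 kb before the start it was 57.9%. These higher shares come from classes of low level in both groups, with means of 8.66% and 5.35% in the first 1 kb. There, small differences in level change the share much. Upstream, the 2 to 5 kb before the start had a control mean of 80.8% and kept 51.0%.

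**Figure D5:**
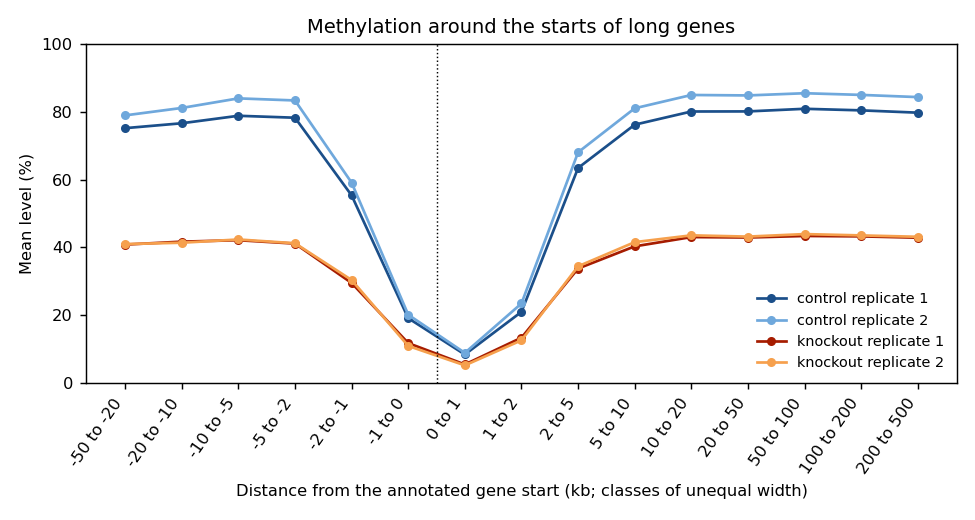
Mean level (vertical axis, percent) by distance from the annotated start (horizontal axis, kb, classes of unequal width, start at the dotted line) in the 4 samples, over up to 163 long genes. All 4 lines dip under 10% in the first 1 kb, and the controls reach 82.5% on average from 10 to 20 kb, where the knockouts reach 43.3%.

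At the starts themselves, most long genes were unmethylated in every sample. In the window from 250 bases before to 50 bases after the first annotated start, 138 genes had at least 5 valued CpGs, and 129 of them were under 20% in controls. The median went from 1.08% to 1.13%. limma called 6 of the 138 lower, beside 15.0% of all 18657 promoter windows, and 1 higher, beside 0.552%. None of these 7 passed when each window was tested on its own spread, with adjusted p from 0.169 to 0.229. The 6 were Hpse2, Rbms3, Ppargc1a, Kalrn, Thsd4 and Tafa1, and the 1 higher was Iqcm. The sequences of 5 windows of the RefSeq promoter table (GRCm38.p6) are shown, 5′ to 3′ with each CG in capitals. They are the starts with the highest, the median and the lowest control level (Tafa1, chr6:96112904-96113203, plus strand; Ptprk, chr10:28074570-28074869, plus strand; Ptprt, chr2:162661098-162661397, minus strand) and, chosen after their values were seen, the called start that kept least and the one called higher (Hpse2, chr19:43388306-43388605, minus strand; Iqcm, chr8:75448444-75448743, plus strand).
Tafa1: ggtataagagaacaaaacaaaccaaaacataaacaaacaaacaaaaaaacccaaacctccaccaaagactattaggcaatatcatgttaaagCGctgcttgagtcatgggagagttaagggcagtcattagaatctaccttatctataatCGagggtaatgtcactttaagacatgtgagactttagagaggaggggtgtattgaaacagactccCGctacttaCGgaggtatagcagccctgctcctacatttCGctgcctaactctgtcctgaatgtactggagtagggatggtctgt
Ptprk: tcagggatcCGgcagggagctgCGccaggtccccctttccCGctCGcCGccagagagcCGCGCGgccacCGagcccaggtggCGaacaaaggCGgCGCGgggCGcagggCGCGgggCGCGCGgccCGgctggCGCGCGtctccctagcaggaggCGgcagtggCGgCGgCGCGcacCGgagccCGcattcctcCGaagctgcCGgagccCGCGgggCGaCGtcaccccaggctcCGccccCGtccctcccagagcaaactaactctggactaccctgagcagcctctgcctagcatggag
Ptprt: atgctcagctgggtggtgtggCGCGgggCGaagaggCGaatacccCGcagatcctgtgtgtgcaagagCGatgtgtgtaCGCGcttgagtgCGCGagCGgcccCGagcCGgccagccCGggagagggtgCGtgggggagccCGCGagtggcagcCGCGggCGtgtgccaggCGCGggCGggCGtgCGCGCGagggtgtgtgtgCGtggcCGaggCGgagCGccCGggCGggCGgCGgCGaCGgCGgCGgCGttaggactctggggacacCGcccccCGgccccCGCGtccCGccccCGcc
Hpse2: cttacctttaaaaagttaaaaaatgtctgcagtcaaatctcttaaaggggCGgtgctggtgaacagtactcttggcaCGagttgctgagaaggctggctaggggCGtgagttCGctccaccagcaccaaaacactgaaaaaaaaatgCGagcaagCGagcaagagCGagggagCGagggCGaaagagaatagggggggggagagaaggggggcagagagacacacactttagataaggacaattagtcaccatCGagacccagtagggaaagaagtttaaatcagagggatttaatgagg
Iqcm: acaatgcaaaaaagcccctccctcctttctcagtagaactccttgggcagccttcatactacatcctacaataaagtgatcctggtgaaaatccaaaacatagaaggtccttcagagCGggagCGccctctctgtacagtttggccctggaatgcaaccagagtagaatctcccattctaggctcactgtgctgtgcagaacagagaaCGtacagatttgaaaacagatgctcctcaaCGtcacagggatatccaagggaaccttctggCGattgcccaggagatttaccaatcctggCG

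The 5 windows differ in how many CGs they hold. Tafa1, which encodes a small secreted protein of the brain, has 5 CGs and Iqcm, a gene named for an IQ motif, has 6, where 43.2% and 47.5% of the 31396 autosomal windows in the table hold as few or fewer. Hpse2, a heparanase relative, has 10. Ptprk and Ptprt have 38 and 46 CGs, and 5.12% and 1.70% of windows hold as many or more. The start of Tafa1 had 82.6% and 89.8% in the controls against 24.8% and 28.1% in the knockouts, a kept share of 30.7%. All 5 of its CGs lost methylation in the means, the one at base 93, counted from 1 at the 5′ end of the sequence, from 90.5% to 30.3% and the one at base 151 from 80.7% to 16.3%. At the start of Hpse2 the levels were 50.8% and 66.4% against 11.8% and 5.62%, and the kept share was 14.9%. This rests on 6 of its 10 CGs, each valued on 1 strand. At the start of Iqcm the levels were 6.62% and 7.89% in the controls against 23.2% and 21.9% in the knockouts. The first CG of Iqcm, at base 118, went from 7.41% to 45.1% and the others from between 5.02% and 9.59% to between 13% and 27.7%. The Ptprk start had 1.42% and 0.753% in the controls against 1.25% and 0.980% in the knockouts, and the Ptprt start 0.450% and 0.188% against 0.305% and 0.677%, so both were near 0 and their groups overlapped. Ptprt thus combined the largest loss over its body with a start that was unmethylated in all 4 samples.

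Starts further inside long genes were near the background of all promoter windows. Of 79 windows at starts more than 2 kb inside the gene, which include some first starts in the promoter table such as those of Ppargc1a, Kalrn and Thsd4, 63 (79.7%) were under 20% in controls, beside 82.4% of all windows. Of the 79, 14 were called lower, beside 15.0% of all windows. None of the 14 passed in limma when each window was tested on its own spread, with adjusted p from 0.157 to 0.261. Among these, the inner start of Sema6d, a semaphorin of axon guidance, had 92.3% and 96.4% in the controls against 34.5% and 53.8% in the knockouts. An inner start of Cacna1c had 86.2% and 93.4% against 42.3% and 30.4%, and one of Ptprg, a receptor phosphatase, had 90.2% and 89.1% against 53.5% and 49.2%. The knockouts were below the controls in all 3, and they differed more from each other than over whole gene bodies. Such windows hold few CpGs: 6, 7 and 6 were valued in these 3.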

How the data were processed

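DNA methylation was measured in 2 control and 2 knockout samples, grouped by the genotype in their titles. The deposited table gives, per the file headers, CpG methylation as a percent at each cytosine and sample, with both strands listed. The name of the table refers to 10 reads, and how that limit was applied is not stated. The build was mm10 per the submitters' processing notes, with aligner and caller not given in the sources used here. Genes and starts came from RefSeq tables of GRCm38.p6, the same build. The promoter table held 163 of the 209 long genes and gave their strand. Genes and gene lists were chosen with earlier results of these data known.

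Region levels were means over cytosines with a value in all 4 samples. Levels were taken as fractions m, moved to the scale log2((m + 0.01)/(1 - m + 0.01)) and fitted in R 4.3.3 with limma 3.58.1 (trended, robust) over all 10747 gene bodies with at least 100 valued CpGs, 232607 windows of 10 kb with at least 10 and 18657 promoter windows with at least 5. The prior was infinite in degrees of freedom for 10746 gene bodies, whose p-values therefore use a pooled variance. For single values the 4 samples were permuted exactly (two-sided). Numbers of reads per cytosine are unknown, so no intervals were computed. On simulated data the fit recovered 100% of 50 planted losses of 20 points and 56% of 10 points in gene bodies. In windows it recovered 100% and 38%, and false calls numbered 0 and 4. The simulation gave all samples the control mean, with noise from the spread between knockouts, no offset between samples and losses in few regions. The real controls lay further apart and nearly all regions changed, so these rates do not carry over to the data. A planted loss of 10 points lies at the limit for a call. Named genes were the longest, those at either end of kept share, control level and loss, those next to 500 kb and the 2 longest of each list. Others named within a list, a part, a window or a start were chosen after their values were seen, and single values of some members are not reported here. Alternatives changed the cytosines, trimming, minimum length and number of CpGs, flanks, scale, variance and centring, added a replicate block, and left out each sample in turn. Python 3.11.15, NumPy 2.4.6, pandas 2.3.3 and Matplotlib 3.10.9 were also used.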

Additional observations from a re-analysis of the deposited data

How the results depend on the processing

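Most results kept their direction and call under the alternatives tried. The loss over long genes was between -41.2 points (isolated CpGs) and -37.7 points (genes above 750 kb), and between -40.4 and -35.9 points with a sample left out. The kept share was between 50.9% and 52.6%, and between 51.2% and 54.1% with a sample left out. The number of long genes called lower was 21 of 209 with samples centred on their medians and 101 of 104 above 750 kb, where fewer genes were tested. Windows called lower numbered 4830 when centred, again without that limit, and 10263 with at least 30 CpGs, where fewer windows were tested. On isolated CpGs, or with each sample on its own cytosines, all 209 genes were called, Gm37013, Gm38666 and Gm38667 included. The first part against the middle reversed to 0.00225 with strands averaged first and to 0.00224 on isolated CpGs, and ranged from -0.00283 to 0.00208 with a sample left out; the cause was not tested. All 140 refits of named genes without 1 sample kept their call.

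Replicate numbers do not say that samples are paired. Deviations of same-numbered samples had a correlation of 0.17 over gene bodies and 0.085 over windows, and with a replicate block 206 genes and 16808 windows were called lower. With 2 samples a group no permutation test can pass 0.05, and the unknown number of reads limits what can be said of windows with few CpGs.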
